A study of Oryza sativa with 16 samples.

Results

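The starch pathway of the rice panicle was followed through 40 loci that encode enzymes of starch synthesis and breakdown, chosen by locus identifier. They are 6 loci of ADP-glucose pyrophosphorylase, 10 of starch synthase, 3 of branching enzyme, 4 of debranching enzyme, 2 of phosphorylase, 2 of disproportionating enzyme, 6 of alpha-amylase and 7 of beta-amylase. The panicle count table lists 55801 genes, among them 39 of these loci, and 36 of those had the 10 counts in total that a test required. The debranching enzyme locus LOC_Os04g08270 was not analysed here. RNA sequencing of panicles compared DTY-IL, a drought-tolerant introgression line with fragments of the donor N22 in the background of Swarna, with Swarna itself, the drought-sensitive recipient parent. Both were grown as 1 plant per pot in a greenhouse and either kept well-watered (control) or put under reproductive-stage drought stress (RDS), with 9 days in soil at 75% of its field capacity and then 3 days at 50%, and whole panicles were taken on day 12 at the R3 stage. DTY-IL is 1 line, so what it shares with other lines that carry N22 fragments is not shown by these data. The groups hold 4 libraries of DTY-IL control, 4 of DTY-IL drought, 3 of Swarna control and 4 of Swarna drought, each labelled a separate biological replicate.

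Starch is made in plastids. ADP-glucose pyrophosphorylase, an enzyme of large and small subunits, supplies ADP-glucose, starch synthases add its glucose to growing chains, branching enzymes make the branch points, and debranching enzymes trim misplaced branches. Phosphorylases lengthen or shorten chains with glucose 1-phosphate, disproportionating enzymes move short stretches of glucose between chains, and alpha- and beta-amylases break starch down, the former inside chains and the latter from their ends. In the panicle before grain filling, starch is laid down in anthers, pollen and the green parts of the spikelet, and its later accumulation in the endosperm makes up most of the grain. Loci are named here by identifier and enzyme family.

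Total counts per library ranged from 24677520 to 31080042, so that 3 counts correspond to 0.0942 to 0.121 counts per 1000000 (CPM), and values at or under that floor are not told apart from absence. Levels below are CPM after scaling with TMM factors, and they are compared between groups for a locus or a sum, not between loci, since transcript length was not taken into account. Markers of floral organs, tapetum, pollen and green tissue were all detected in control panicles, as the labelled tissue requires, while the summed level of 4 endosperm loci was 5.24 to 5.54 CPM in DTY-IL control and 3.36 to 5.96 CPM in Swarna control. Some libraries stood apart over the starch loci. Among the 4 libraries of DTY-IL drought, replicate 4 was the highest for 22 of 36 loci and replicate 2 the lowest for 23, while over all 33698 genes tested they held these places for 22.4% and 30.6%. In Swarna control, replicate 2 was the lowest of 3 libraries for 22 of 36 loci, against 34.5% of all genes. Replicate 3 of DTY-IL control was the lowest of its group for 17 of 36 loci, against 28.6% of all genes, and its summed beta-amylase level was 880.0 CPM where the group median was 4439 CPM.

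To see how the pathway responded to drought, drought libraries were set against control libraries within each genotype, and a larger share of the starch loci than of all genes was lower under drought in both. In DTY-IL 2 starch loci rose and 13 fell, which is 41.7% of the 36 tested, whereas 19.8% of all genes tested passed the same thresholds, 7.46% as higher and 12.3% as lower. In Swarna 5 rose and 15 fell, or 55.6%, whereas 29.5% of all genes passed, 11.9% as higher and 17.6% as lower. A locus was called when edgeR's quasi-likelihood test gave a Benjamini-Hochberg adjusted p of at most 0.05 over all 33698 genes and the fold change was at least 2, and all adjusted p-values below are from this fit. By adjusted p alone 19 starch loci passed in DTY-IL (33.0% of all genes did) and 24 in Swarna (44.3% of all genes). The median log2 fold change over the 36 loci was -0.57 in DTY-IL and -0.90 in Swarna, beside medians of -0.03 and 0.00 over all genes tested. Drought and control libraries did not overlap for 12 of the 36 starch loci in DTY-IL (29.3% of all genes) and for 30 of the 36 in Swarna (52.2% of all genes). Leaving out 1 library at a time gave 11 to 17 calls in DTY-IL, the fewest without DTY-IL drought replicate 3 and the most without DTY-IL control replicate 3, and 17 to 23 in Swarna. With the Swarna control library that the study excluded as an outlier put back, 6 loci were called in DTY-IL and 16 in Swarna, against 8.49% and 20.7% of all genes. The 16 include LOC_Os08g25734 (-1.61, adjusted p = 0.00602), which was not called with 15 libraries, so fewer than 16 of the 20 Swarna calls were kept. Over all contrasts this alternative lost 15 of 36 calls. The 9 loci whose DTY-IL call was lost kept log2 fold changes of -1.04 to -2.72, with adjusted p-values from 0.05002 to 0.302, and 6 loci kept theirs: LOC_Os07g22930, LOC_Os04g53310, LOC_Os03g55090, LOC_Os07g46790, LOC_Os09g28420 and LOC_Os03g22790.

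All 15 loci called in DTY-IL were also called in Swarna, in the same direction, which is 100% of the DTY-IL calls and 75% of the Swarna calls, whereas over all genes tested the calls shared in direction were 78% of the DTY-IL and 52.4% of the Swarna calls. The 2 drought effects compare different libraries but share the scaling and the estimate of spread of 1 fit. Every one of the 36 loci had the same sign of fold change in both genotypes, against 81.6% of all genes. The 33698 genes tested include many with few counts, since 24398 to 26160 genes had 10 counts in a library. Shares of all genes were not matched to the starch loci by level. The change was numerically larger in Swarna for 13 of the 15 loci called in both, or 86.7%, against 81.3% over all genes called in both, and for 32 of the 36 loci tested, or 88.9%, against 67.4% of all genes. The 5 loci called in Swarna and not in DTY-IL were LOC_Os01g44220, LOC_Os04g33460 and LOC_Os10g41550, which rose, and LOC_Os02g52700 and LOC_Os07g35880, which fell, and none of them passed the test of the difference between the drought effects. DESeq2 called LOC_Os10g41550 (1.42, adjusted p = 0.0460) and LOC_Os07g35880 (-1.97, adjusted p = 0.0281) for drought in DTY-IL as well, and also LOC_Os10g32810 (-1.24, adjusted p = 0.0476). In Swarna the ADP-glucose pyrophosphorylase, branching enzyme, phosphorylase and beta-amylase families each held loci that rose beside loci that fell, as the plot of drought effects by locus shows.

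**Figure D1:**
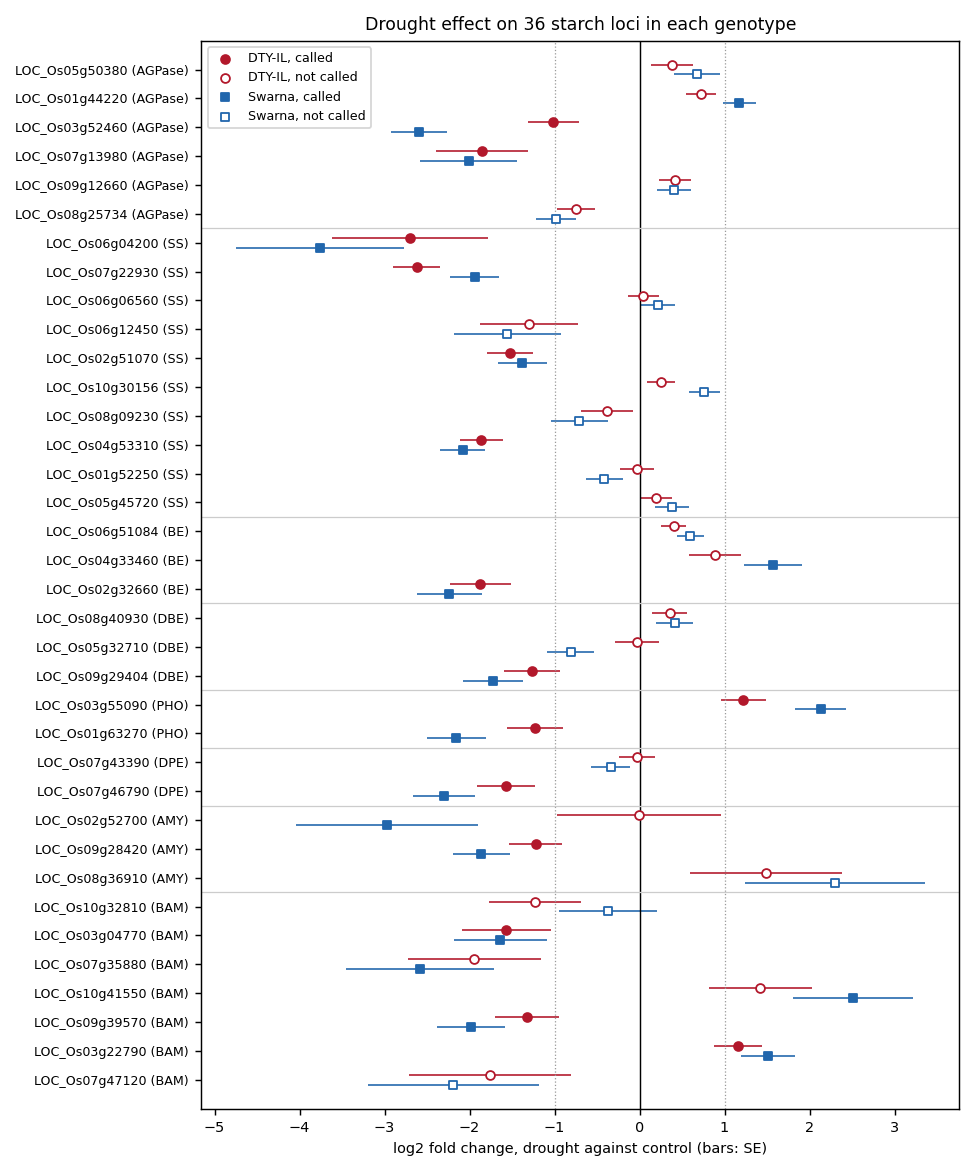
Drought effect on the 36 tested starch loci. The x axis gives the log2 fold change of drought against control with bars of 1 SE, red circles are DTY-IL and blue squares Swarna, filled symbols are loci called at an adjusted p of at most 0.05 and a fold change of at least 2, and dotted lines mark that fold change (AGPase, ADP-glucose pyrophosphorylase, SS, starch synthase, BE and DBE, branching and debranching enzyme, PHO, phosphorylase, DPE, disproportionating enzyme, AMY and BAM, alpha- and beta-amylase). Filled symbols lie to the left of 0 for 13 loci in DTY-IL and 15 in Swarna and to the right for 2 and 5, and each pair of symbols lies on the same side of 0.

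Markers of several tissues moved with drought in the same libraries. Falls and rises of markers are counted at the thresholds of the starch calls. By these, 12.3% of all genes tested were lower in DTY-IL and 17.6% in Swarna, and 7.46% and 11.9% were higher. Of 3 pollen markers all fell in both genotypes, and their summed level went from 22.7 to 58.9 CPM in DTY-IL control to 6.47 to 15.6 CPM under drought and from 78.8 to 94.2 to 5.70 to 21.9 CPM in Swarna. Tapetum markers fell for 1 of 4 loci in DTY-IL and 2 of 4 in Swarna, with sums of 35.1 to 145 against 6.37 to 35.9 CPM and 52.2 to 70.9 against 3.86 to 10.1 CPM. Among 4 green tissue markers 2 fell in DTY-IL and 4 in Swarna, with sums of 9084 to 25836 against 923 to 8518 CPM and 14812 to 23336 against 1455 to 3209.7 CPM. Floral organ markers fell for 5 of 8 loci in DTY-IL and 6 of 8 in Swarna, with sums of 1198 to 1548 against 769 to 1045 CPM and 1438 to 1627 against 553 to 789 CPM. Of the 4 endosperm markers 1 rose in each genotype, and sums under drought were 7.19 to 12.4 and 8.66 to 9.58 CPM. At the 3-count floor in every library were 2 endosperm loci in each control group and 1 in DTY-IL drought, where 1 was at 0 in each of these groups. The drought and control libraries did not overlap in the floral organ, pollen and green tissue sums of either genotype, which were lower under drought, nor in the endosperm sums, which were higher. Replicate 3 of DTY-IL control had the lowest pollen (22.7 CPM), floral organ (1198 CPM) and green tissue (9084 CPM) sums of its group. It also had the highest tapetum sum (145 CPM). The part of these markers in the starch results was not tested, and fewer cells of a type and less RNA per cell cannot be told apart in whole panicles.

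**Figure D2:**
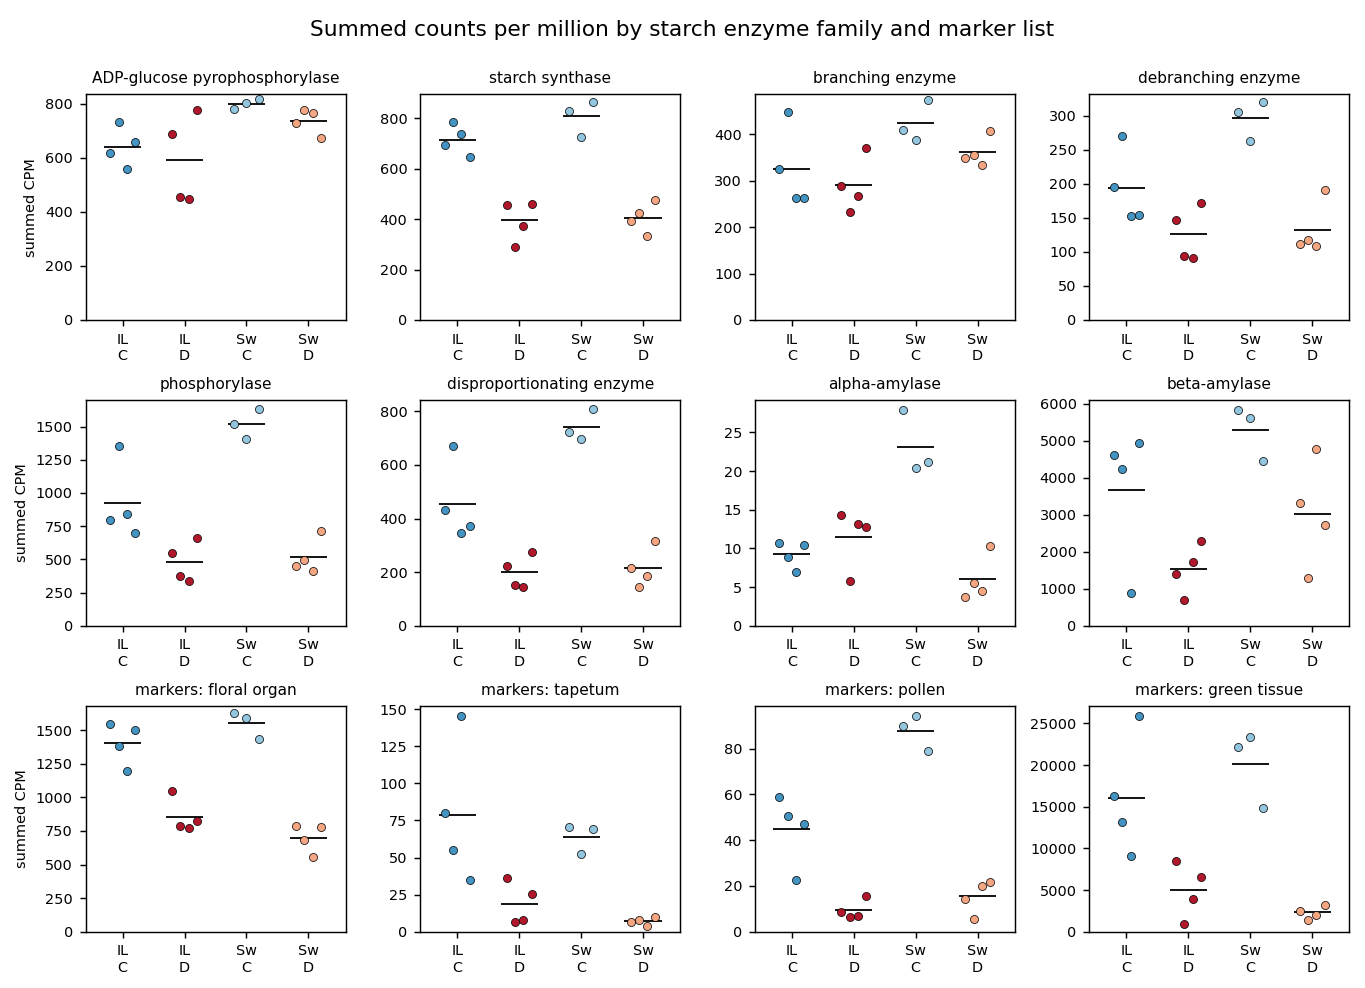
Summed CPM of each starch enzyme family and of 4 marker lists, 1 panel each, on linear axes from 0. Each point is a library, the line is the group mean, IL is DTY-IL, Sw is Swarna, C is control and D is drought. Starch synthase, phosphorylase and disproportionating enzyme sums are lower in every drought library than in every control library of the same genotype, and so are the floral organ, pollen and green tissue marker sums.

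The ADP-glucose pyrophosphorylase loci, which supply the glucose donor of the pathway, split by direction. LOC_Os03g52460 stood at 30.5, 44.1, 18.1 and 52.4 CPM in DTY-IL control and 26.1, 12.3, 17.9 and 15.4 CPM in DTY-IL drought, and at 39.8, 48.8 and 39.0 CPM in Swarna control and 6.76, 4.85, 8.87 and 7.67 CPM in Swarna drought. Every Swarna drought library lay far below every Swarna control library, while in DTY-IL 1 control library, replicate 3, lay among the drought libraries. It fell 6.04-fold in Swarna (log2 fold change -2.59 ± 0.33 SE, adjusted p = 4.24e-05) and 2.02-fold in DTY-IL (-1.02 ± 0.30, adjusted p = 0.0199). The DTY-IL value was at the edge of the thresholds, and leaving out any of 5 libraries ended the call: without DTY-IL control replicates 2 or 4, DTY-IL drought replicates 2 or 4, or Swarna drought replicate 2 the log2 fold change was -0.91, -0.79, -0.92, -0.95 and -0.96. LOC_Os07g13980 gave 104, 153, 35.6 and 107 CPM in DTY-IL control against 27.0, 16.96, 17.6 and 49.0 CPM under drought, and 167, 194 and 181 CPM in Swarna control against 32.6, 11.7, 45.6 and 89.8 CPM under drought. The Swarna groups did not overlap, and in DTY-IL the lowest control library was below the highest drought library. Its fall was 3.62-fold in DTY-IL (-1.86 ± 0.54, adjusted p = 0.0184) and 4.03-fold in Swarna (-2.01 ± 0.57, adjusted p = 0.0107). In DTY-IL the adjusted p of this locus was 0.0507 without drought replicate 2 and 0.0572 without drought replicate 3.

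LOC_Os01g44220, of the same family, moved the other way. Its levels were 32.0, 31.0, 19.7 and 20.7 CPM in DTY-IL control and 42.3, 41.9, 42.1 and 43.7 CPM in DTY-IL drought, where the libraries were nearly alike, and 32.5, 28.7 and 42.0 CPM in Swarna control and 65.7, 81.4, 72.9 and 90.3 CPM in Swarna drought. Drought libraries lay above all control libraries in Swarna, and in DTY-IL too. It rose 2.26-fold in Swarna (1.17 ± 0.19, adjusted p = 0.000291), and in DTY-IL the change passed the adjusted p without reaching 2-fold (0.72 ± 0.18, adjusted p = 0.00733). With the excluded Swarna control library restored, the Swarna value became 0.39 (adjusted p = 0.466). LOC_Os08g25734 was lower under drought by less than 2-fold, with means of 178 ± 4.75 (SD, n = 4) and 106 ± 35.7 CPM in DTY-IL (-0.75 ± 0.22, adjusted p = 0.0192) and of 206 ± 5.89 (n = 3) and 104 ± 22.8 CPM in Swarna (-0.98 ± 0.24, adjusted p = 0.00403), and its groups did not overlap in either genotype. In Swarna this locus was just under the fold threshold, and it was called with any count above 0 as the filter (-1.07, adjusted p = 0.00250). The remaining loci, LOC_Os05g50380 and LOC_Os09g12660, had log2 fold changes of 0.38 ± 0.25 and 0.42 ± 0.18 in DTY-IL and of 0.68 ± 0.27 and 0.40 ± 0.20 in Swarna, none past an adjusted p of 0.05. The 6 loci together summed to 642 ± 73.8 and 592 ± 167 CPM in DTY-IL control and drought and to 800.3 ± 19.0 and 736 ± 46.2 CPM in Swarna control and drought. In DTY-IL these group sums differed by less than the SD of the drought libraries, and the libraries overlapped. In Swarna the drought libraries (675 to 777 CPM) lay narrowly below the control libraries (780 to 817 CPM).

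Of the 10 starch synthase loci, whose enzymes build the glucose chains, 4 fell in both genotypes and none rose. Of all 33698 genes tested, 3315 fell in both genotypes by the same thresholds. LOC_Os06g04200 had the largest drought effects of the 36 loci in both genotypes, with 156, 143, 97.8 and 78.8 CPM in DTY-IL control and 34.0, 4.08, 4.66 and 30.3 CPM under drought, and 215, 180.2 and 210.4 CPM in Swarna control and 5.09, 6.44, 1.11 and 47.0 CPM under drought. All drought libraries lay below all control libraries, and they were uneven: DTY-IL drought replicates 1 and 4 and Swarna drought replicate 4 were several times higher than the rest of their groups. The fall was 6.51-fold in DTY-IL (-2.70 ± 0.92, adjusted p = 0.0362) and 13.5-fold in Swarna (-3.76 ± 0.99, adjusted p = 0.00692). In DTY-IL the call was lost without control replicate 1 or 2 or drought replicate 2 or 3, at adjusted p-values of 0.0718, 0.0616, 0.0830 and 0.0908. LOC_Os07g22930 was at 78.4, 83.1, 126 and 97.4 CPM in DTY-IL control and 18.8, 15.2, 12.5 and 15.9 CPM in DTY-IL drought, and at 104, 96.0 and 104 CPM in Swarna control and 13.7, 39.5, 32.7 and 19.9 CPM in Swarna drought. Control libraries lay above drought libraries without overlap, and the fall was 6.17-fold in DTY-IL (-2.62 ± 0.28, adjusted p = 4.45e-05) and 3.83-fold in Swarna (-1.94 ± 0.29, adjusted p = 0.000131).

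LOC_Os02g51070 and LOC_Os04g53310 behaved more evenly among libraries. The former gave 69.2, 50.7, 50.003 and 72.0 CPM in DTY-IL control and 26.1, 12.7, 19.98 and 25.1 CPM under drought, and 60.0, 56.3 and 45.7 CPM in Swarna control and 32.3, 16.4, 13.6 and 20.7 CPM under drought. No drought library reached a control library, and the fall was 2.88-fold in DTY-IL (-1.53 ± 0.27, adjusted p = 0.00114) and 2.60-fold in Swarna (-1.38 ± 0.29, adjusted p = 0.00148). The latter gave 120.4, 181, 106 and 128 CPM in DTY-IL control against 42.3, 20.2, 44.6 and 40.1 CPM under drought, and 157, 133 and 166 CPM in Swarna control against 28.9, 44.3, 28.8 and 41.7 CPM under drought. Its groups did not overlap either, with a fall of 3.64-fold in DTY-IL (-1.86 ± 0.25, adjusted p = 0.000189) and 4.23-fold in Swarna (-2.08 ± 0.26, adjusted p = 4.12e-05). These calls of LOC_Os04g53310 and LOC_Os07g22930 held under every alternative, those of LOC_Os02g51070 under every alternative but the 1 that restores the excluded Swarna control library, where the adjusted p in DTY-IL was 0.176. The other 6 starch synthase loci were not called in either genotype. They were LOC_Os06g06560, LOC_Os06g12450, LOC_Os10g30156, LOC_Os08g09230, LOC_Os01g52250 and LOC_Os05g45720, with log2 fold changes of -1.30 to 0.25 in DTY-IL and -1.56 to 0.76 in Swarna. LOC_Os06g12450 had the lowest of these in both genotypes (-1.30 ± 0.58 and -1.56 ± 0.63, adjusted p = 0.0972 and 0.0576) from control means of 8.82 ± 3.78 and 5.08 ± 1.198 CPM, and LOC_Os10g30156 had the highest and passed the adjusted p alone in Swarna (0.76 ± 0.18, adjusted p = 0.00405). The summed level of the 10 loci was 644 to 785 CPM in DTY-IL control and 289 to 458 CPM under drought, and 726 to 866 CPM in Swarna control and 333 to 474 CPM under drought, without overlap in either genotype.

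The 3 branching enzyme loci, whose products place the branch points of amylopectin, went in both directions. LOC_Os02g32660 was at 157, 228, 104 and 119 CPM in DTY-IL control and 53.4, 22.9, 29.0 and 60.9 CPM in DTY-IL drought, and at 243, 234 and 279 CPM in Swarna control and 46.0, 35.8, 42.6 and 89.6 CPM in Swarna drought. Drought libraries lay below control libraries throughout, and the fall was 3.66-fold in DTY-IL (-1.87 ± 0.36, adjusted p = 0.00184) and 4.71-fold in Swarna (-2.24 ± 0.38, adjusted p = 0.000359). LOC_Os04g33460 showed 33.0, 50.5, 38.1 and 24.1 CPM in DTY-IL control against 77.8, 43.6, 56.1 and 92.9 CPM under drought, and 33.4, 19.9 and 44.7 CPM in Swarna control against 123, 98.2, 61.7 and 106 CPM under drought. In Swarna all drought libraries were above all control libraries, and in DTY-IL the lowest drought library was below the highest control library. It rose 2.97-fold in Swarna (1.57 ± 0.34, adjusted p = 0.00214), while in DTY-IL it passed the adjusted p alone (0.89 ± 0.31, adjusted p = 0.0379). With the excluded Swarna control library restored, the Swarna value became 0.72 (adjusted p = 0.267). LOC_Os06g51084 was higher under drought by less than 2-fold in both genotypes, with means of 137 ± 23.1 and 181 ± 25.6 CPM in DTY-IL (0.40 ± 0.15, adjusted p = 0.0483) and 139 ± 9.81 and 209.9 ± 22.1 CPM in Swarna (0.60 ± 0.16, adjusted p = 0.00793). The family sum overlapped between drought and control in both genotypes, at 263 to 448 against 233 to 370.0 CPM in DTY-IL and 387 to 474 against 333 to 407 CPM in Swarna.

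Among the debranching enzymes, which remove branches during synthesis and breakdown, 1 of 3 tested loci fell in both genotypes. The same held for 3315 of all 33698 genes tested. LOC_Os09g29404 read 136, 189.9, 87.7 and 96.5 CPM in DTY-IL control and 60.8, 34.0, 40.1 and 77.8 CPM under drought, and 208, 175 and 218 CPM in Swarna control and 46.6, 48.7, 44.8 and 102 CPM under drought. Control and drought libraries were apart in both genotypes, with drought replicate 4 the highest drought library of each. The fall was 2.40-fold in DTY-IL (-1.26 ± 0.33, adjusted p = 0.0106) and 3.31-fold in Swarna (-1.73 ± 0.35, adjusted p = 0.00131). LOC_Os05g32710 passed the adjusted p in Swarna alone (-0.81 ± 0.28, adjusted p = 0.0289), where its libraries went from 76.6, 68.2 and 76.0 CPM in control to 38.6, 33.7, 34.1 and 61.6 CPM under drought, and its DTY-IL value was -0.03 ± 0.26. The difference between these effects was 0.78 (95% interval -0.04 to 1.60, adjusted p = 0.431). LOC_Os08g40930 had log2 fold changes of 0.35 ± 0.20 and 0.41 ± 0.22 in DTY-IL and Swarna, neither past an adjusted p of 0.05.

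The 2 phosphorylase loci were both called in both genotypes and in opposite directions. LOC_Os03g55090 was at 34.0, 50.2, 73.0 and 28.1 CPM in DTY-IL control and 105, 113, 88.9 and 125 CPM in DTY-IL drought, and at 39.0, 35.2 and 55.5 CPM in Swarna control and 174, 244, 180.2 and 159.8 CPM in Swarna drought. Every drought library exceeded every control library of its genotype, and the rise was 2.33-fold in DTY-IL (1.22 ± 0.26, adjusted p = 0.00377) and 4.38-fold in Swarna (2.13 ± 0.30, adjusted p = 9.26e-05). LOC_Os01g63270 was at 760.0, 1305, 771 and 672 CPM in DTY-IL control and 445, 263, 252 and 536 CPM in DTY-IL drought, and at 1477, 1370.2 and 1579 CPM in Swarna control and 280.1, 252, 234 and 558 CPM in Swarna drought. The groups did not overlap, with control replicate 2 high in DTY-IL and drought replicate 4 high in Swarna. It fell 2.35-fold in DTY-IL (-1.23 ± 0.33, adjusted p = 0.0112) and 4.46-fold in Swarna (-2.16 ± 0.35, adjusted p = 0.000256). Without DTY-IL control replicate 2 the DTY-IL log2 fold change was -0.97, just under 2-fold (adjusted p = 0.0365). The phosphorylase sum followed LOC_Os01g63270, with 923 ± 294 CPM in DTY-IL control, 482 ± 150.1 CPM in DTY-IL drought, 1519 ± 114 CPM in Swarna control and 521 ± 135 CPM in Swarna drought (mean ± SD).

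Of the 2 disproportionating enzyme loci, LOC_Os07g46790 fell in both genotypes. It gave 364, 575, 300.1 and 290.4 CPM in DTY-IL control and 158, 90.5, 83.9 and 182 CPM under drought, and 616, 573 and 705 CPM in Swarna control and 114, 79.8, 104 and 215 CPM under drought. Its drought and control libraries were apart in both genotypes, and the fall was 2.97-fold in DTY-IL (-1.57 ± 0.34, adjusted p = 0.00358) and 4.92-fold in Swarna (-2.30 ± 0.36, adjusted p = 0.000199). LOC_Os07g43390 showed no change past an adjusted p of 0.05, with -0.03 ± 0.21 in DTY-IL (95% interval -0.49 to 0.42) and -0.34 ± 0.23 in Swarna (95% interval -0.83 to 0.15), so that changes of 2-fold in either direction lie outside these intervals.

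Alpha-amylase loci, whose enzymes cut within starch chains, were scarce in these panicles. LOC_Os08g36900 had no count in any of the 15 libraries, LOC_Os02g52710 had 8 counts and LOC_Os09g28400 had 7 counts in all, with at most 3 in a library, so that these loci were not tested and no difference was detectable at this depth. Their neighbours by locus number were tested, and since alpha-amylase genes of a cluster are alike in sequence, how reads were divided among them is uncertain. LOC_Os02g52700 was at 6.34, 7.40, 5.41 and 4.89 CPM in DTY-IL control and 12.9, 0.879, 0.344 and 9.90 CPM in DTY-IL drought, and at 26.5, 17.7 and 19.0 CPM in Swarna control and 1.96, 0.851, 0.0765 and 7.87 CPM in Swarna drought. In DTY-IL drought replicates 1 and 4 were above all controls and replicates 2 and 3 below them, whereas all Swarna drought libraries were below the Swarna controls. It fell 7.85-fold in Swarna (-2.97 ± 1.07, adjusted p = 0.0361), and the DTY-IL value was -0.01 ± 0.96 (95% interval -2.07 to 2.06). Swarna drought replicate 3 lay at the floor of 3 counts. The Swarna call was lost without any of the 3 control libraries or without drought replicate 1, 2 or 3, at adjusted p-values from 0.0530 to 0.0882. LOC_Os09g28420 gave 1.55, 1.01, 1.36 and 2.02 CPM in DTY-IL control and 0.811, 0.440, 0.687 and 0.603 CPM under drought, and 0.951, 1.63 and 1.89 CPM in Swarna control and 0.363, 0.333, 0.459 and 0.477 CPM under drought, low levels that were above the floor in every library. Its groups did not overlap, with a fall of 2.33-fold in DTY-IL (-1.22 ± 0.31, adjusted p = 0.00904) and 3.63-fold in Swarna (-1.86 ± 0.34, adjusted p = 0.000591). LOC_Os08g36910 had the largest positive value in DTY-IL without a call (1.49 ± 0.89, adjusted p = 0.213, and 2.30 ± 1.06, adjusted p = 0.0928, in Swarna), with libraries from 0.136 to 3.48 CPM in DTY-IL control and 0.626 to 12.1 CPM in DTY-IL drought. It was called for drought in Swarna by DESeq2 (2.31, adjusted p = 0.0346) and when only the Swarna groups were fitted (2.31, adjusted p = 0.0154).

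Beta-amylases release maltose from chain ends, and of their 7 loci 2 fell and 1 rose in both genotypes, while 2 more were called in Swarna. Over all 33698 genes tested, 3315 fell and 1881 rose in both genotypes, and 4718 were called in Swarna alone. LOC_Os03g04770 was at 2423, 1973, 346 and 2169.7 CPM in DTY-IL control and 534, 269.7, 605 and 926 CPM in DTY-IL drought, and at 2566, 2371 and 1917 CPM in Swarna control and 1005, 306, 661 and 966 CPM in Swarna drought. Swarna groups were apart, while DTY-IL control replicate 3 lay at the level of the drought libraries. It fell 2.96-fold in DTY-IL (-1.57 ± 0.52, adjusted p = 0.0337) and 3.11-fold in Swarna (-1.64 ± 0.55, adjusted p = 0.0261), both close to the threshold. The DTY-IL call was lost without control replicates 1, 2 or 4 or drought replicates 1, 2 or 3 (adjusted p from 0.0598 to 0.0899), and the Swarna call without control replicates 1 or 2 or drought replicates 2 or 3 (adjusted p from 0.0573 to 0.0694). LOC_Os09g39570 gave 63.3, 103, 25.0 and 87.9 CPM in DTY-IL control and 28.4, 23.3, 23.1 and 36.6 CPM under drought, and 179, 148 and 139.6 CPM in Swarna control and 40.7, 18.1, 47.8 and 50.7 CPM under drought. Control replicate 3 was again the DTY-IL control that lay among the drought libraries, and the Swarna groups were apart. The fall was 2.51-fold in DTY-IL (-1.33 ± 0.38, adjusted p = 0.0155) and 3.95-fold in Swarna (-1.98 ± 0.40, adjusted p = 0.00123).

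The beta-amylase locus that rose in both genotypes was LOC_Os03g22790, with 63.8, 54.4, 61.3 and 61.5 CPM in DTY-IL control and 146, 56.3, 200.2 and 134 CPM in DTY-IL drought, and 33.3, 34.5 and 25.8 CPM in Swarna control and 119.9, 77.0, 73.3 and 86.4 CPM in Swarna drought. Drought replicate 2 of DTY-IL stayed at the control level, and all other drought libraries were above their controls. Its rise was 2.23-fold in DTY-IL (1.15 ± 0.28, adjusted p = 0.00767) and 2.86-fold in Swarna (1.51 ± 0.32, adjusted p = 0.00160), and without DTY-IL drought replicate 3 the DTY-IL log2 fold change was 0.90, under 2-fold. LOC_Os10g41550 was at 25.4, 3.93, 5.48 and 5.05 CPM in DTY-IL control and 9.62, 11.0, 53.3 and 33.0 CPM under drought, and at 9.66, 9.57 and 5.39 CPM in Swarna control and 43.4, 45.5, 53.3 and 45.1 CPM under drought. Swarna drought libraries were close to each other and several times above their controls, and the DTY-IL groups overlapped through a high control replicate 1. It rose 5.70-fold in Swarna (2.51 ± 0.70, adjusted p = 0.00975, and 0.0511 without Swarna control replicate 4), while the DTY-IL value was 1.42 ± 0.61 (adjusted p = 0.0844). LOC_Os07g35880 read 23.8, 10.6, 74.1 and 9.46 CPM in DTY-IL control and 11.2, 2.23, 2.75 and 14.5 CPM under drought, and 9.11, 5.86 and 12.5 CPM in Swarna control and 1.05, 2.85, 0.191 and 1.99 CPM under drought. The Swarna groups were apart and the DTY-IL groups overlapped widely. It fell 5.997-fold in Swarna (-2.58 ± 0.87, adjusted p = 0.0255), a call lost without control replicates 1 or 4 or drought replicates 1 or 3 (adjusted p from 0.0518 to 0.0631), and its DTY-IL value was -1.94 ± 0.78 (adjusted p = 0.0699). LOC_Os10g32810 and LOC_Os07g47120 were not called in the fit of all groups, with -1.23 ± 0.54 and -1.76 ± 0.96 in DTY-IL and -0.37 ± 0.57 and -2.19 ± 1.01 in Swarna. When only the Swarna groups were fitted, LOC_Os07g47120 was called as lower under drought (-2.19, adjusted p = 0.0193). Levels of LOC_Os10g32810 ranged from 368 to 2563 CPM in DTY-IL control and from 833 to 3893 CPM in Swarna drought, a spread of several times within a group. LOC_Os07g47120 was at 0.102 CPM in DTY-IL control replicate 3, within the floor of 3 counts, and at 39.6 to 57.9 CPM in the other 3 controls.

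**Figure D3:**
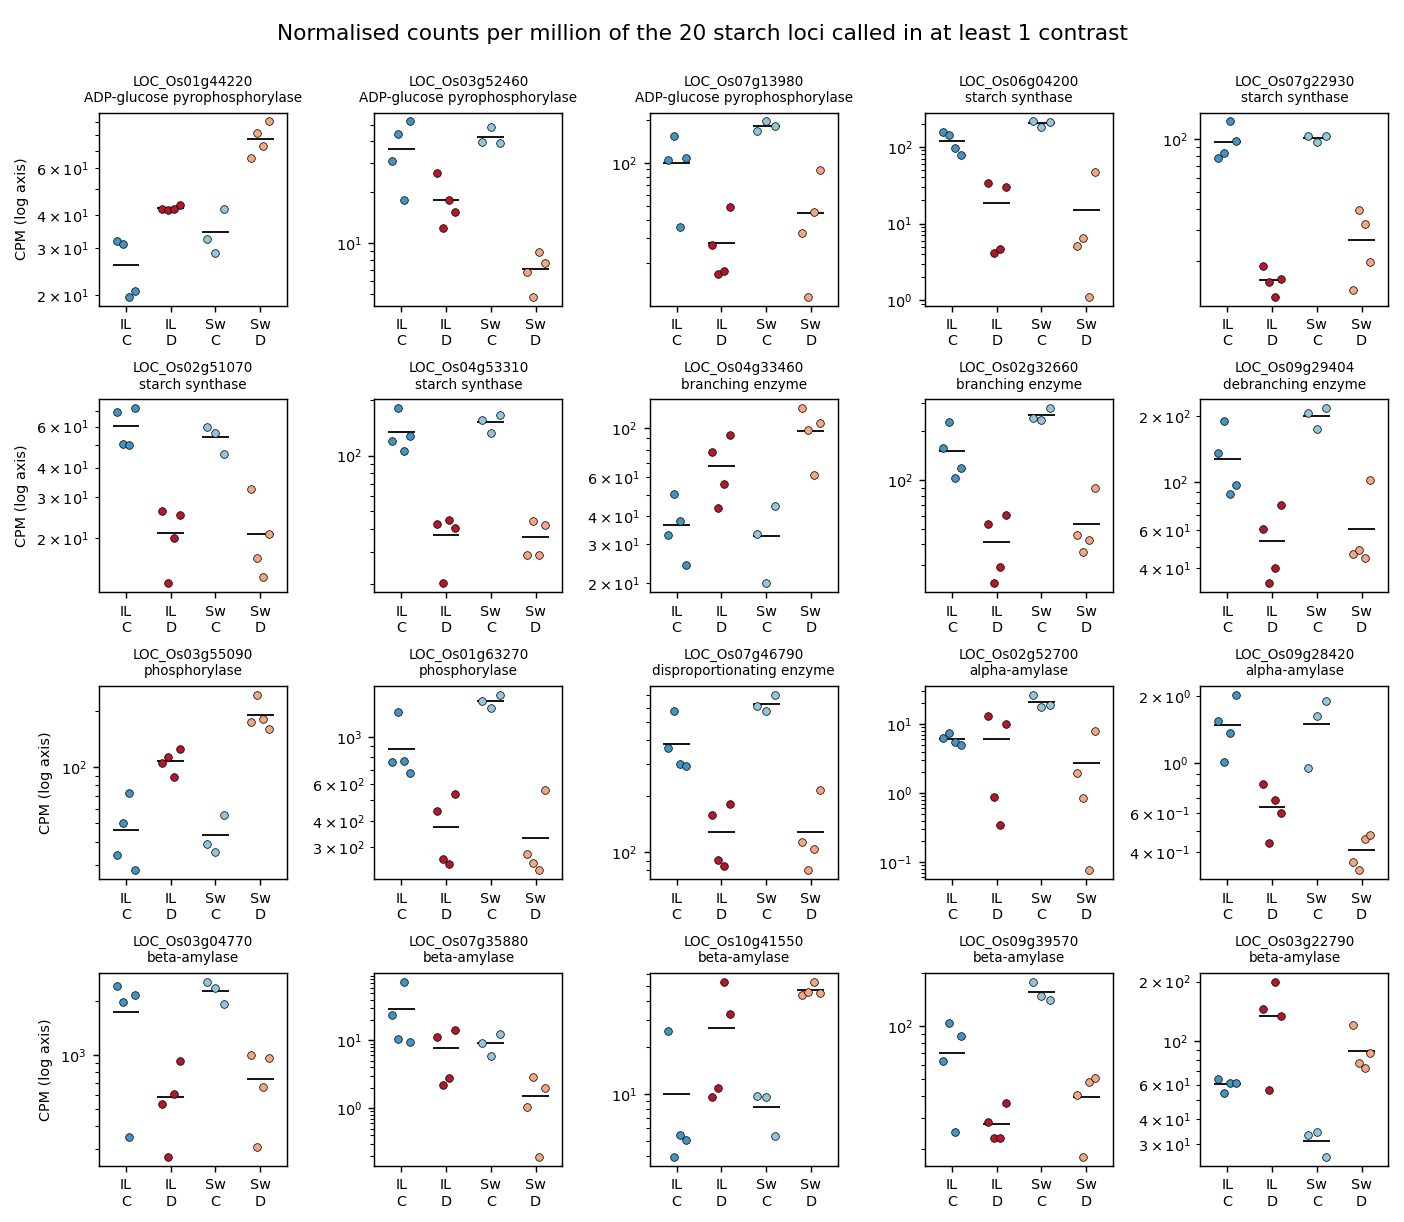
Levels of the 20 starch loci called in at least 1 contrast, 1 panel per locus, in CPM on log axes. Points are libraries, lines are group means, IL is DTY-IL, Sw is Swarna, C is control and D is drought. Drought and control points are apart in both genotypes for 11 of the 20 loci, and for the other 9 they are apart in Swarna and overlap in DTY-IL. Over all genes tested they are apart for 29.3% in DTY-IL and 52.2% in Swarna. The loci shown were picked by their calls in these same libraries, which favours points that lie apart.

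Between the genotypes far fewer starch loci were called. In well-watered panicles 0 of 36 loci were called by edgeR's quasi-likelihood test (1.10% of all genes were), and DESeq2 called 0 too. At an unadjusted p under 0.05 there were 6 loci, against 11.0% of all genes, with a lowest adjusted p of 0.212. The libraries of the genotypes did not overlap for 13 of the 36 loci, a larger share than the 12.9% of all genes. Of the 36 loci, 2 were higher and 11 lower in DTY-IL without overlap, while 5.62% of all genes were higher and 7.26% lower. The share of lower loci was thus above that of all genes, and the share of higher loci near it. The lowest adjusted p belonged to the debranching enzyme locus LOC_Os05g32710, at 36.1, 52.3, 30.8 and 40.6 CPM in DTY-IL control and 76.6, 68.2 and 76.0 CPM in Swarna control (log2 difference -0.88 ± 0.28, adjusted p = 0.212). The beta-amylase LOC_Os03g22790, with a control mean of 60.2 ± 4.05 CPM in DTY-IL and 31.2 ± 4.74 CPM in Swarna, had a log2 difference of 0.95 (95% interval 0.28 to 1.61, adjusted p = 0.234). The beta-amylase LOC_Os09g39570 had one of -1.15 (95% interval -1.999 to -0.31, adjusted p = 0.267). Differences of 2-fold lay outside the 95% interval for 18 of the 36 loci, so for the other 18 a difference of that size lay within the interval. When only the control groups were fitted, the alpha-amylase LOC_Os02g52700 was called as lower in DTY-IL (-1.84, adjusted p = 0.00423).

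Under drought 1 starch locus was called between the genotypes, against 3.36% of all genes, 2.09% as higher in DTY-IL. By the adjusted p alone 1 locus was higher in DTY-IL and 1 lower, against 2.84% and 2.16% of all genes. Both encode ADP-glucose pyrophosphorylase. LOC_Os03g52460 had drought levels of 12.3 to 26.1 CPM in DTY-IL and 4.85 to 8.87 CPM in Swarna, without overlap. It was 2.55-fold higher in DTY-IL (1.35 ± 0.31, 95% interval 0.69 to 2.01, adjusted p = 0.0214), and without DTY-IL drought replicate 1 the adjusted p was 0.0701. With all 16 libraries the call was lost too (1.35, adjusted p = 0.455 by edgeR). Its control levels overlapped, and the control difference was -0.23 ± 0.32 (adjusted p = 0.844). LOC_Os01g44220 was lower in DTY-IL drought, where its libraries read 41.9 to 43.7 CPM, than in Swarna drought, where they read 65.7 to 90.3 CPM (-0.87 ± 0.18, adjusted p = 0.0113), less than 2-fold. Together with the phosphorylase LOC_Os03g55090 (-0.81 ± 0.26, adjusted p = 0.0897) these were the 3 loci without overlap between the genotypes under drought, against 13.3% of all genes. The beta-amylase LOC_Os07g35880 had the largest difference, 2.33 ± 0.83 (95% interval 0.56 to 4.10), with overlapping libraries and an adjusted p of 0.120. DESeq2 called 3 starch loci between the genotypes under drought, against 5.79% of all genes, adding LOC_Os07g35880 (2.32, adjusted p = 0.0297) and the beta-amylase LOC_Os10g32810 (-1.49, adjusted p = 0.0431).

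Whether the genotypes differed in their drought response was tested as the difference of the drought effects, and 0 of 36 starch loci were called by edgeR's quasi-likelihood test, in which 0.0564% of all genes were called. At an unadjusted p under 0.05 there were 2 starch loci, against 12.3% of all genes, and DESeq2 called 1, against 1.56% of all genes by that tool. The 2 loci were LOC_Os03g52460, with a difference of drought effects (DTY-IL minus Swarna) of 1.58 ± 0.44 (95% interval 0.63 to 2.52, adjusted p = 0.202 by edgeR), and LOC_Os03g55090, with -0.91 ± 0.39 (95% interval -1.74 to -0.08, adjusted p = 0.3596 by edgeR). The former is the locus DESeq2 called (1.57, adjusted p = 0.0347). LOC_Os02g52700 had the largest difference, 2.97 ± 1.43, with an interval of -0.10 to 6.03 (adjusted p = 0.424). The median half-width of the 95% intervals was 0.95 on the log2 scale, and differences of 2-fold lay outside the interval for 9 of the 36 loci.

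**Figure D4:**
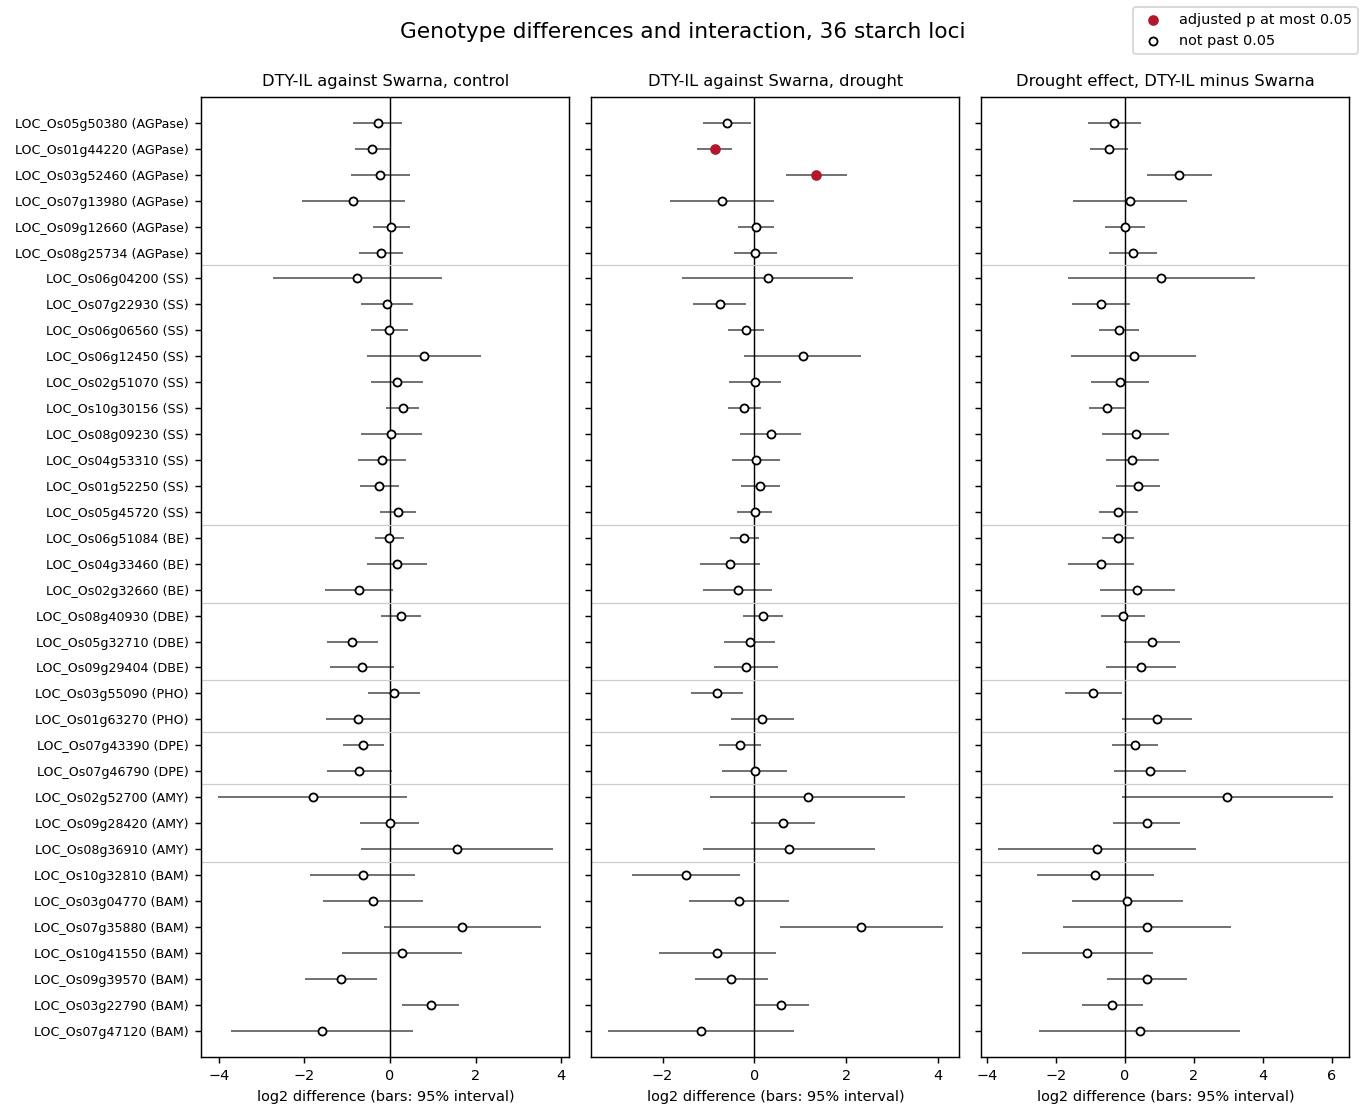
Genotype differences of the 36 starch loci under control (left) and drought (middle) as log2 of DTY-IL against Swarna, and the drought effect in DTY-IL minus that in Swarna (right), with 95% intervals and families abbreviated as in the plot of drought effects. Filled red points pass an adjusted p of 0.05, open points do not. There are 2 filled points, both under drought and both ADP-glucose pyrophosphorylase loci, LOC_Os03g52460 to the right of 0 and LOC_Os01g44220 to the left.

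A further 15 loci of carbon supply to the plastid, starch phosphorylation and export of breakdown products, and regulators of starch genes, drawn up from general knowledge of rice, were counted in the same fit. In DTY-IL 0 of 15 rose and 2 fell (19.8% of all genes were called), 1 of them among 4 loci of starch phosphorylation and export and 1 among 7 regulators. In Swarna 1 of 4 carbon supply loci rose, and 2 of 4 phosphorylation and export loci and 2 of 7 regulators fell, which is 33.3% of the 15 where 29.5% of all genes were called. Their median log2 fold change was -0.26 in DTY-IL and -0.14 in Swarna. None of the 15 was called between the genotypes or in the difference of drought effects by edgeR's quasi-likelihood test, with 1, 1 and 0 loci at an unadjusted p under 0.05 in control, drought and the difference, against 11.0%, 21.7% and 12.3% of all genes.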

How the data were processed

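Panicle RNA was sequenced in 16 libraries of 2 genotypes and 2 treatments. The authors trimmed the reads with Trimmomatic, estimated counts with Salmon 0.7.2 against the Nipponbare transcripts of RGAP 7 (made with Cufflinks 2.2.1) with sequence and GC bias correction, and summed them per gene. Per the deposited table the values are whole-number estimated counts, not normalized. Reads of Swarna and N22 alleles that differ from Nipponbare may be counted less completely. The authors also deposited tables of DESeq2 1.14.1 contrasts (fold changes and p-values), which were not used. Flag-leaf libraries were not analysed here.

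Count columns carry group names and numbers 1 to 4 that differ from the numbers in the sample titles, so columns were assigned to groups only, and replicate numbers are those of the columns. The 1 Swarna control library that the study excluded (column 3) was left out, and an alternative included it. Total counts were 24677520 to 31080042 over the 15 libraries used, and the floor of 3 counts covers counting error only.

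All 4 groups were fitted together in edgeR 4.0.16 (R 4.3.3) with TMM factors, over the 33698 of 55801 genes that reached 10 counts in total, and each contrast was tested by the quasi-likelihood test with Benjamini-Hochberg adjustment over all genes tested. Standard errors are the log2 fold change divided by the square root of F, and 95% intervals use the degrees of freedom of that fit. The pots of the study stood in randomized complete blocks, and no block term was fitted, since block numbers could not be tied to count columns. Alternatives were DESeq2 1.42.0, RLE factors or total counts in place of TMM, filterByExpr, any count above 0 as the filter, the use of all 16 libraries, fits of the compared groups alone, and leaving out each library in turn. Figures were drawn with matplotlib 3.10.9.

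The members, the lists of other pathway and marker loci and the alternatives were chosen with earlier results of these data known. Enzyme families follow the order of the member list, and the other lists come from general knowledge of rice, since neither the files nor the reference table pair these loci with names. Every member is named by locus. Values of every library are printed for members called in at least 1 contrast with a mean of at least 1 CPM in a group, at most 20 of them by drought effect, and for members past an adjusted p of 0.05 between the genotypes, the others as ranges and counts.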

Additional observations from a re-analysis of the deposited data

Results flagged for a closer look

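In 8 of 108 groups of 4 libraries, over 7 starch loci, 1 library lay far from the other 3 by Dixon's test at the 95% level, which flags about 1 group in 20 by chance. Swarna drought replicate 4 was high for 3 loci: the starch synthase LOC_Os06g04200 (47.0 CPM, against 1.11 to 6.44 CPM in the others), the debranching enzyme LOC_Os09g29404 (102 CPM, against 44.8 to 48.7 CPM) and the phosphorylase LOC_Os01g63270 (558 CPM, against 234 to 280.1 CPM). DTY-IL drought replicate 4 was high for the disproportionating enzyme LOC_Os07g43390 (93.6 CPM, against 61.9 to 65.7 CPM) and the beta-amylase LOC_Os07g47120 (20.9 CPM, against 6.41 to 7.49 CPM), and DTY-IL drought replicate 2 was low for the starch synthase LOC_Os10g30156 (28.9 CPM, against 47.8 to 50.9 CPM). In DTY-IL control, replicate 2 was high for LOC_Os01g63270 (1305 CPM, against 672 to 771 CPM) and replicate 1 for the beta-amylase LOC_Os10g41550 (25.4 CPM, against 3.93 to 5.48 CPM).

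The Swarna control library left out of the comparisons was above all 15 other libraries for 8 of the 36 tested starch loci and below all of them for 12. Over all genes tested this held for 22.4% and 26.2%. The share above was near that of all genes, and the share below was somewhat larger. In the untested alpha-amylase loci it lay within the range of the others. The ADP-glucose pyrophosphorylase LOC_Os05g50380 was at 10.9 CPM in it and at 133 to 363 CPM in the others, while LOC_Os01g44220 of the same family was at 127 CPM and at 19.1 to 86.4 CPM, scaled over all 16 libraries.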

How the results depend on the processing

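Under 22 alternatives to each of 36 called values of single loci, 792 values in all, every one kept its direction and 739 kept the call, while 53 lost it and none reversed. The 36 values were picked by their calls in the same data, and the alternatives share most libraries. Kept direction and calls are therefore no independent test of these values. The use of all 16 libraries alone lost 15 of the 36 calls. Counts of called starch loci within 1.5 times those of the report are not repeated. With DESeq2, 3 loci were called between the genotypes under drought (5.79% of all genes) and 1 in the difference of drought effects (1.56%). With all 16 libraries, 6 loci were called for drought in DTY-IL and 0 between the genotypes under drought, and with only the groups compared in the fit 1 locus was called between the genotypes under control. Leaving out 1 library at a time gave 11 to 17 calls for drought in DTY-IL, 17 to 23 for drought in Swarna, 0 to 0 between the genotypes under control, 0 (without DTY-IL drought replicate 1) to 2 (without DTY-IL control replicate 3) under drought, and 0 to 0 in the difference of drought effects. Some calls were made only under an alternative, DESeq2 adding LOC_Os07g35880, LOC_Os10g32810 and LOC_Os10g41550 for drought in DTY-IL and LOC_Os06g12450 and LOC_Os08g36910 for drought in Swarna. For drought in Swarna by edgeR, fits of the compared groups alone added LOC_Os07g47120 (-2.19, adjusted p = 0.0193) and LOC_Os08g36910. Any count above 0 as the filter added LOC_Os06g12450 (-1.64, adjusted p = 0.0492) and LOC_Os08g25734 (-1.07, adjusted p = 0.00250). The use of all 16 libraries added LOC_Os08g25734 (-1.61, adjusted p = 0.00602). No scaling moved the median of all genes by more than 0.1 on the log2 scale. No paired analysis was possible because the count columns carry neither the numbers of the sample titles nor block numbers. The 3 untested alpha-amylase loci had at most 8 counts in total. Whether depth or the division of reads among like genes accounts for this was not tested.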
